A study of Mus musculus with 6 samples.

Results

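Hepatocellular carcinomas of 2 labelled origins were compared in mice: tumours titled Epcam-derived and tumours titled Albumin-derived, both without CLC, a tumour component that the labels name without expanding it. The members were chosen by sample title and comprised 4 of the 6 arrays of the study, 2 tumours of each origin. The Albumin-derived tumours came from Alb-AID mice at 90 weeks of age. The Epcam-derived tumours came from Epcam-AID mice that had received tamoxifen and then a diet with 0.1% DDC for 8 months. All mice were of strain C57BL/6 and both lines carry AID in their names. The labels give no age for the Epcam-AID mice, no sex for any animal, no tamoxifen or DDC for the Alb-AID mice, and neither the promoter constructs nor the share of cells that carried the transgene. The labelled origin, tamoxifen, diet and any difference in age therefore change together and cannot be told apart. The other 2 arrays, Epcam-derived tumours with CLC from mice treated in the same way, shared the estimate of spread. RNA from frozen tumour was hybridised to 1-colour Agilent arrays, 1 tumour per array.

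Hepatocytes make the proteins of blood plasma, bile acids and the enzymes that clear drugs, and Alb is their most typical gene, while Epcam marks bile duct cells and the ductular cells that expand in injured liver. DDC is a porphyrin-forming agent that damages bile ducts and evokes such a ductular reaction. Plasma protein export loads the endoplasmic reticulum, whose stress response is carried by chaperones and by the factors XBP1, ATF6 and ATF4. Exposure to reactive chemicals is met by other factors, among them NRF2 for antioxidant genes and AhR, CAR and PXR for drug-metabolising enzymes.

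Levels below are log2 signals relative to the 75th percentile of the same array, so 0 is the level of that percentile, and differences are Epcam-derived minus Albumin-derived. The 75th percentile of intensity was 285 and 306 on the Albumin-derived arrays and 424 and 457 on the Epcam-derived arrays, and 55.5% to 64.6% of probes on these 4 arrays were well above background. Both Albumin-derived arrays lay on 1 slide and both Epcam-derived arrays on another, so slide and group cannot be told apart. Nothing in the labels says more of the replicates than their numbers, so p-values measure the spread between these tumours. Alb read 10.35 and 10.16 in Albumin-derived and 9.81 and 9.52 in Epcam-derived tumours.

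Epcam-derived replicate 1 stood apart from the other 3 arrays in sex-linked genes. Xist, transcribed from the inactive X chromosome, read -0.95 and -7.42 in the Epcam-derived tumours and -3.11 and -6.74 in the Albumin-derived tumours, and the value of -3.11 was also well above background. The Y-linked Eif2s3y read 1.47 and 1.01 in Albumin-derived and -7.39 and 1.26 in Epcam-derived tumours, and Kdm5d read -1.51 and -1.83 against -7.57 and -2.01 in the same order. Mup20, a urinary protein of male liver, was likewise low on Epcam-derived replicate 1 alone. It read 4.68 and 8.998 in Epcam-derived and 9.63 and 8.77 in Albumin-derived tumours. Cyp2b9, a cytochrome P450 of female liver, was high on both Albumin-derived arrays (5.12 and 4.70) and on Epcam-derived replicate 1 but not on replicate 2 (4.38 and -5.24). The Epcam-derived group thus held arrays of both patterns of X- and Y-linked transcripts, whereas Eif2s3y and Kdm5d were well above background on both Albumin-derived arrays. The Y-linked Ddx3y read -1.20 and -5.01 in Albumin-derived and -7.48 and -2.04 in Epcam-derived tumours. Of these, only Albumin-derived replicate 1 and Epcam-derived replicate 2 were well above background. Tumour with CLC replicate 1 shared the pattern of Epcam-derived replicate 1. In the tumours with CLC, Xist read -0.08 and -7.77 and Eif2s3y -6.02 and 1.09. Results are given below also without Epcam-derived replicate 1.

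**Figure D1:**
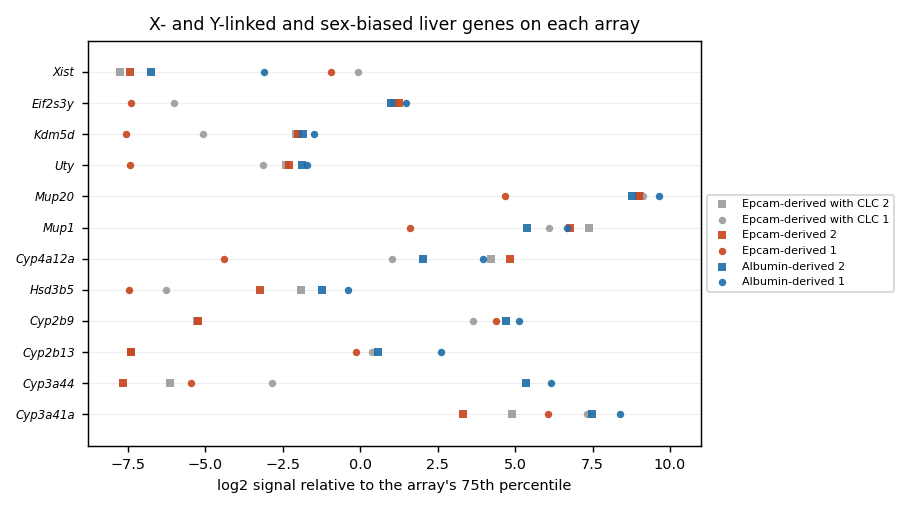
Log2 signal relative to the array's 75th percentile (x axis) for X- and Y-linked and sex-biased liver genes (y axis), 1 symbol per array, with Epcam-derived tumours with CLC in grey. Epcam-derived replicate 1 lies left of the other 3 arrays without CLC for the Y-linked genes and for Mup20, and Cyp3a44 is low on both Epcam-derived arrays.

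Of 27412 features tested, 16 were higher and 51 lower in the Epcam-derived tumours after Benjamini-Hochberg adjustment (limma, threshold 0.05), which is 0.0584% and 0.186% of features. Of these, 43 had a gene symbol. In 9 of the higher and 26 of the lower features 1 group was not well above background, so that these were kept through the brighter group alone and their p rests on values at background. With no filter on dim probes 1 feature was higher and 0 lower (limma). Either direction together this is 67 features (0.244%), while 5482 (20%) had an unadjusted p under 0.05. Mean signals were higher in Epcam-derived tumours for 53.5% of features and lower for 46.5%. The groups did not overlap, whatever the test, for 8339 features that were higher (30.4%) and 6793 that were lower (24.8%), 55.2% in all. The median difference over all features was 0.06. No feature passed when Albumin-derived replicate 1 or 2, Epcam-derived replicate 1 or 2 or the tumour with CLC replicate 1 was left out (limma, 3992 to 5591 at an unadjusted p under 0.05). With the tumour with CLC replicate 2 left out 3 were higher and 13 lower. All 67 features kept their direction when any array was left out. Their groups did not overlap, so for the same probe 1 array fewer could not turn it, and this is no support. Without Epcam-derived replicate 1, Cbr3 differed by 6.42 and Anxa8 by -10.90, with smallest adjusted p = 0.0891 over all features (limma).

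**Figure D2:**
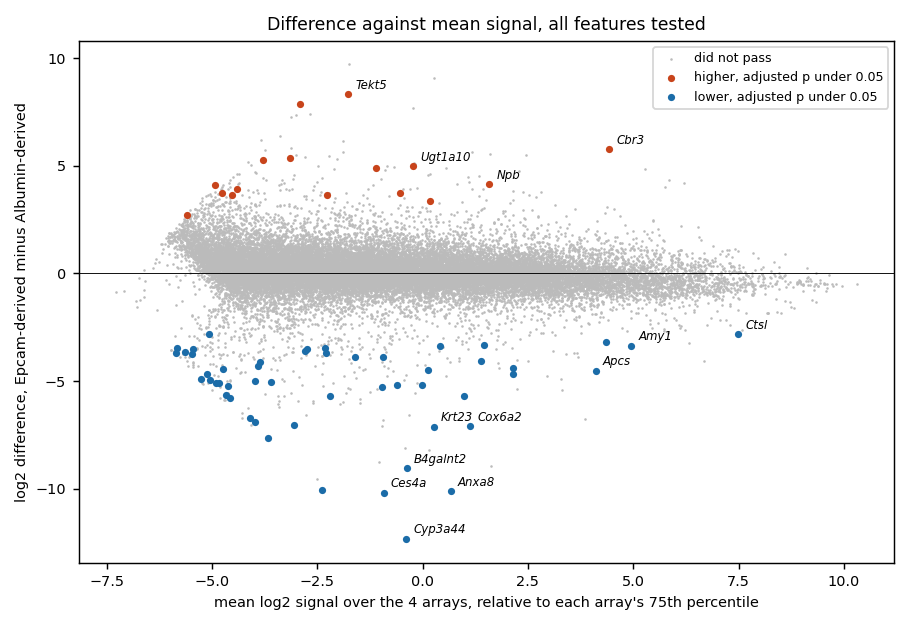
Difference in log2 signal, Epcam-derived minus Albumin-derived (y axis), against the mean log2 signal over the 4 arrays relative to each array's 75th percentile (x axis), 1 point per feature. The 16 features higher and the 51 lower past the threshold are coloured and lie at the outer edge of the cloud, with Anxa8 at -10.11.

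Among the genes that rose in Epcam-derived tumours were enzymes that detoxify carbonyl compounds and drugs. Cbr3, a carbonyl reductase, read 2.17 and 0.91 in Albumin-derived and 6.69 and 7.96 in Epcam-derived tumours. It differed by 5.78 ± 0.61 (log2, SE, n = 2; limma, adjusted p = 0.0475), and both Epcam-derived arrays lay far above both others. Ugt1a10, which attaches glucuronic acid to drugs and bilirubin-like compounds, read -2.99 and -2.47 against 1.91 and 2.61 in the same order, a difference of 4.99 ± 0.35 (adjusted p = 0.0234). Ugt1a genes share their last exons, so which of them the probe measured is uncertain. Npb, a neuropeptide, read -0.70 and -0.30 in Albumin-derived and 3.60 and 3.70 in Epcam-derived tumours (4.15 ± 0.29, adjusted p = 0.0234), with a second probe at 3.19. Its levels in tumours with CLC were between the groups, at 0.82 and 1.25.

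Tekt5, a filament protein of sperm tails, was not well above background in either Albumin-derived tumour and read 1.84 and 2.93 in Epcam-derived tumours. It was at least 131-fold higher there (limma, adjusted p = 0.0234). Where both tumours of 1 origin were too dim to measure, only such a bound is given, set against the lowest signal that was well above background there. Ptgfr, the receptor of prostaglandin F2 alpha, was at least 3.41-fold higher (adjusted p = 0.0475) at levels of -2.32 and -3.43, and Vwa7, a protein with a von Willebrand factor A domain, at least 4.64-fold (adjusted p = 0.0417) at -2.78 and -2.09. Mcc, a candidate suppressor of colorectal tumours, read -1.43 and -1.55 in Albumin-derived and 1.84 and 1.87 in Epcam-derived tumours, a difference of 3.35 ± 0.32 (adjusted p = 0.0417). Those 7 genes were all the features with a symbol that rose.

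Among the genes that fell were a cytochrome P450 and an esterase of the liver. Cyp3a44, a P450 of female mouse liver, read 6.18 and 5.37 in Albumin-derived tumours and was not well above background in either Epcam-derived tumour, at least 2433-fold lower (limma, adjusted p = 0.0417). RNA of close Cyp3a relatives may also bind the probe. On Epcam-derived replicate 1, where Xist was high and Cyp2b9 read 4.38, Cyp3a44 was at background. In tumours with CLC it read -2.86 and -6.14, and only the first of these was well above background. The part of sex in this difference was not tested. Ces4a, a carboxylesterase, read 4.83 and 3.51 in Albumin-derived tumours and was at least 802-fold lower (adjusted p = 0.0234), while the other 15 measured carboxylesterases did not pass.

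Anxa8 and Krt23, which the list of bile duct genes holds, were high in the Albumin-derived tumours. Anxa8, an annexin that binds membranes in the presence of calcium, read 4.82 and 6.63 there and -3.60 and -5.17 in Epcam-derived tumours, and differed by -10.11 ± 0.76 (log2, SE, n = 2; limma, adjusted p = 0.0249). The keratin Krt23 read 4.66 and 2.98 against -4.08 and -2.52 in the same order (-7.12 ± 0.72, adjusted p = 0.0443). Both genes were well above background on all 4 arrays, and in tumours with CLC they read -1.75 and -1.95 for Anxa8 and -1.52 and -1.47 for Krt23. Agr2, a disulfide isomerase of mucus-secreting epithelia, was at least 61.9-fold lower in Epcam-derived tumours (adjusted p = 0.0417).

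B4galnt2, which completes the Sda blood group sugar, read 4.13 and 4.17 in Albumin-derived and -4.50 and -5.30 in Epcam-derived tumours. It differed by -9.05 ± 0.49 (limma, adjusted p = 0.0206), and a second probe of the gene by -5.45. Cox6a2, the heart and muscle form of a cytochrome c oxidase subunit, read 4.58 and 4.80 against -2.77 and -2.06 in the same order (-7.10 ± 0.45, adjusted p = 0.0234). Nipal2, a relative of magnesium transporters, was at least 26.4-fold lower (adjusted p = 0.0117), and Fras1, a protein of basement membranes, at least 8.60-fold lower (adjusted p = 0.0408). The vomeronasal receptor gene Vmn2r4 read 1.16 and 2.20 in Albumin-derived and -3.71 and -3.46 in Epcam-derived tumours (adjusted p = 0.0408). The uncharacterised 2310034O05Rik and 4930459C07Rik differed by -5.68 ± 0.39 and -5.68 ± 0.33 (limma, adjusted p = 0.0234 for both). The likewise uncharacterised 1700019D03Rik and BC016579, were at least 49.7-fold and 21.2-fold lower (adjusted p = 0.0285 and 0.0416).

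Of the amylases, enzymes that cleave starch, 2 fell. Amy2b was at least 14.1-fold lower in Epcam-derived tumours (limma, adjusted p = 0.0417), and Amy1, the form made by salivary gland and liver, read 6.48 and 6.77 in Albumin-derived and 3.26 and 3.27 in Epcam-derived tumours (-3.36 ± 0.28, adjusted p = 0.0285). Amy2a5 did not pass by its brightest probe, with levels of 3.92 and 3.79 against 0.40 and 0.35 in the same order. Its other probe differed by -3.76 ± 0.26 and passed in the limma fit of every probe on its own (adjusted p = 0.0228). The amylase genes are near-identical copies, so their probes may not be independent. Of 17 pancreas acinar genes 7 were measured, and the other 10, among them Prss1, Cpa1 and Pnlip, were not well above background in both tumours of any group. Of the 7, Amy2a5 included, 4 had a lower mean in Epcam-derived tumours, with a median of -0.34. Their summed signal was 60.3 and 37.2 times the 75th percentile in Albumin-derived and 23.0 and 18.3 in Epcam-derived tumours, without overlap. The elastase Cela2a read 0.34 and 1.87 against -1.26 and -1.74 in the same order (limma, adjusted p = 0.112). Cel, Clps and Cela3b ran the other way, with means higher in Epcam-derived tumours by 0.70, 0.49 and 0.28. The part of pancreas acinar cells in the amylase differences was not tested. Amy1 here and Ctsl, Angptl6, Niban1, Gnat2, Mboat1, Pde1c and Vmn2r1 next were singled out after their values were seen.

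Another gene that fell encodes a plasma protein. Apcs, serum amyloid P, an acute phase protein of mouse liver, read 6.22 and 6.51 in Albumin-derived and 2.40 and 1.30 in Epcam-derived tumours, and differed by -4.51 ± 0.45 (log2, SE, n = 2; limma, adjusted p = 0.0417). Ctsl, the lysosomal protease cathepsin L, read 8.82 and 8.99 against 6.13 and 6.04 in the same order (-2.82 ± 0.26, adjusted p = 0.0408). Its arrays within each group lay closer together than 0.2. Angptl6, a secreted relative of angiopoietins, read 4.35 and 4.57 against -0.37 and -0.01 (-4.65 ± 0.43, adjusted p = 0.0408). Niban1, a protein induced by cellular stress, read 3.03 and 3.21 against -0.14 and -0.30 (-3.34 ± 0.27, adjusted p = 0.0285). Of the remaining 16 genes with a symbol that fell, 6 were measured in both groups and differed by -3.45 to -4.50, among them Gnat2, a transducin of cone cells, and Mboat1, a lysophospholipid acyltransferase. The other 10 were not well above background in Epcam-derived tumours, with bounds of 2.62-fold for Pde1c to 15.9-fold for Vmn2r1.

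**Figure D3:**
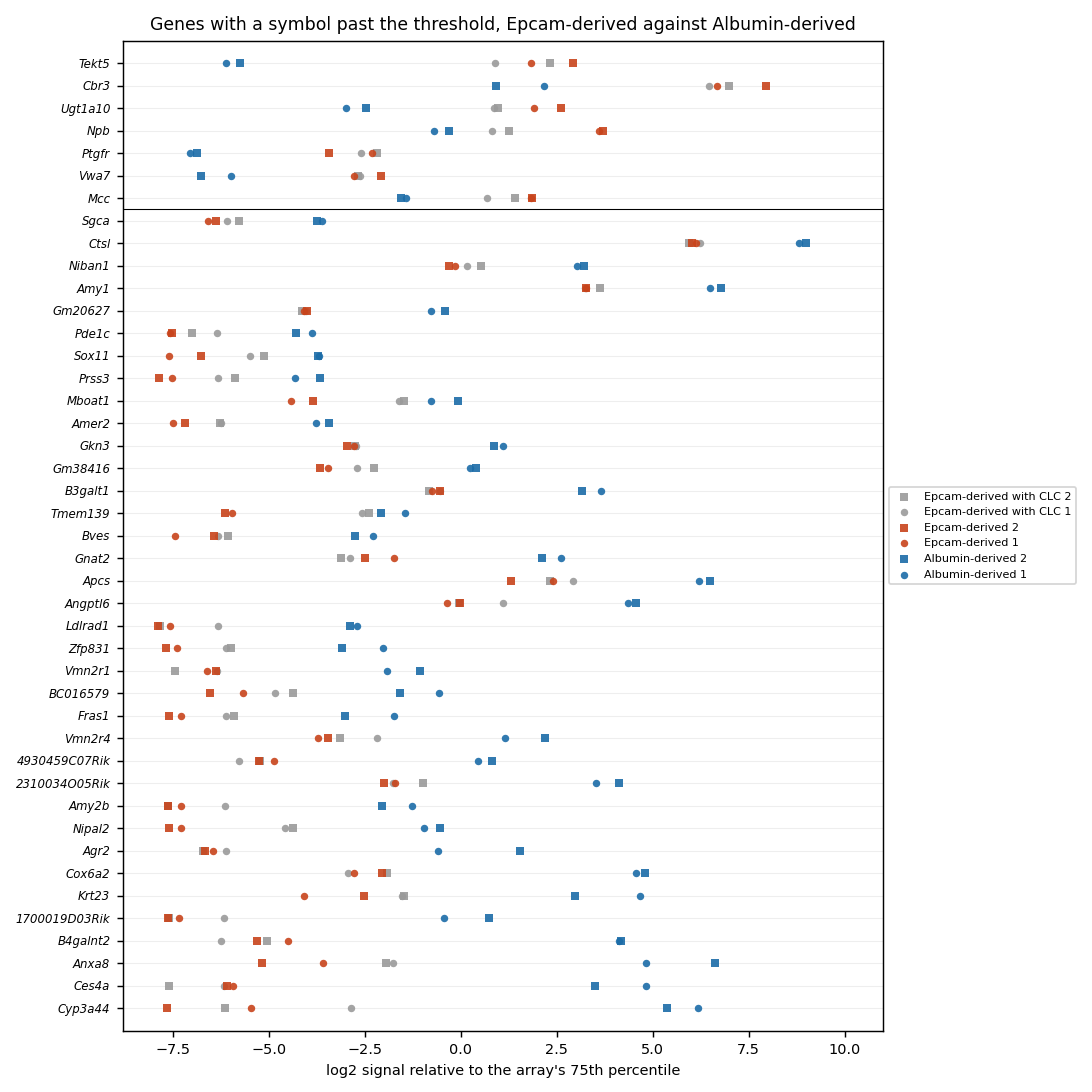
Log2 signal relative to the array's 75th percentile (x axis) for the 43 genes with a symbol that passed the threshold (y axis), 1 symbol per array. The 7 genes above the line rose and those under it fell. Blue (Albumin-derived) and red (Epcam-derived) symbols do not overlap for any gene. The genes were chosen by p on these arrays, and 55.2% of all features do not overlap, so this is no result.

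Genes well above background on all 4 arrays also showed wide differences that did not pass. Dnase1, a secreted nuclease, read -4.67 and -3.84 in Albumin-derived and 2.23 and 7.38 in Epcam-derived tumours, with the 2 Epcam-derived arrays far apart (9.06 ± 2.17, limma adjusted p = 0.131). Mgst2, a microsomal glutathione transferase, read -4.27 and -3.89 in Albumin-derived and 2.55 and 4.70 in Epcam-derived tumours (7.70 ± 1.22, limma adjusted p = 0.0775). Gpx2, a glutathione peroxidase of the gut, read 0.63 and -2.996 against 3.86 and 4.89, and Heph, a copper oxidase that loads iron onto transferrin, -2.35 and -3.17 against 1.66 and 3.08. Celsr1, a cadherin of planar cell polarity, read -2.33 and -3.03 in Albumin-derived and 3.23 and 1.38 in Epcam-derived tumours (adjusted p = 0.0590). In the other direction Igfbp6, which binds IGF2, read 6.47 and 5.71 against -1.91 and -3.81 (adjusted p = 0.0568), and Alox5, the first enzyme of leukotriene synthesis, 4.08 and 0.81 against -4.25 and -4.43. These 7 genes were taken from those whose groups did not overlap, which held for 55.2% of all features, so their lack of overlap is no result.

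Most genes of the endoplasmic reticulum stress response and of amino acid synthesis had lower signals in the Epcam-derived tumours. This list of 38 genes was compiled after the differences of its leading members had been seen, so its counts describe those members and test nothing. All 38 were measured, 34 of 38 had a lower mean in Epcam-derived tumours and the median difference was -1.58. The median ranged over -1.91 to -1.48 for the 4 pairs of arrays and was -1.70 without Epcam-derived replicate 1. The groups did not overlap for 28 of the lower members, 73.7% of the list against 24.8% of all features. No member passed the threshold over all features.

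The chaperone Hspa5, also known as BiP, which holds unfolded proteins and restrains the stress sensors, read 8.12 and 8.41 in Albumin-derived and 6.19 and 6.04 in Epcam-derived tumours, a difference of -2.14 ± 0.30 (limma, adjusted p = 0.0694). Hsp90b1, the HSP90 form of the endoplasmic reticulum, differed by -2.08 ± 0.32 (adjusted p = 0.0769), calreticulin (Calr) by -1.82 ± 0.24 (adjusted p = 0.0616) and Hyou1, a nucleotide exchange factor for BiP, by -2.38 ± 0.33 (adjusted p = 0.0665). Derl3, which helps to return misfolded proteins to the cytosol, read 4.04 and 6.58 against 0.05 and 1.098 (-4.74 ± 0.93, adjusted p = 0.100), and Sdf2l1, a partner of BiP, 3.37 and 4.43 against 1.19 and 1.21 (-2.70 ± 0.47). Both groups were apart for each of these 6 genes.

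Among the regulators, Ddit3, the transcription factor CHOP, read 3.40 and 4.31 in Albumin-derived and -0.50 and -0.10 in Epcam-derived tumours (-4.15 ± 0.48, limma adjusted p = 0.0539). Nupr1, a small stress-induced chromatin protein, read 6.36 and 8.11 against 1.66 and -0.74 (-6.78 ± 1.02, adjusted p = 0.0748). The transcripts of the upstream factors differed less, by -0.79 ± 0.25 for Xbp1 and -0.65 ± 0.31 for Atf4. Of the amino acid enzymes, Asns, which makes asparagine, read 1.55 and 2.86 in Albumin-derived and -0.86 and -1.57 in Epcam-derived tumours, and Psat1, of serine synthesis, 3.76 and 3.34 against 1.65 and -0.94. Asns read 1.40 and 2.91 in tumours with CLC. Ddit4, Slc7a5, Vldlr and Sesn2 were the 4 members with a higher mean in Epcam-derived tumours.

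Promoters of 34 list members were found in the RefSeq table (GRCm38.p6), each from 250 bases before to 50 after the transcription start. The ER stress element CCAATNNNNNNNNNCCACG, which joins an NF-Y box (CCAAT) to the part that ATF6 binds, was searched on both strands. It was found in 7 of the 34 (20.6%), against 37 of 27025 genes in the table (0.137%). Hspa5, Hsp90b1 and Calr are among the genes in which this element was first described. The list holds such genes and was compiled after values were seen, so the comparison of these shares tests nothing. A sequence is shown for each of the 7 genes. All 7 had lower signals on both Epcam-derived arrays than on either Albumin-derived array, as did 73.7% of the list and 24.8% of all features. Whether the element went with lower signals was not tested. Capitals mark the element, or its reverse complement, and each sequence runs 5′ to 3′ on the strand of its gene.
Hspa5 (chr2:34772005-34772063, + strand): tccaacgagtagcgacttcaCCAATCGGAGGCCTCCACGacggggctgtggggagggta
Hsp90b1 (chr10:86705513-86705571, - strand): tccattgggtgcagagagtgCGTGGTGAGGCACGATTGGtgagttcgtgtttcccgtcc
Calr (chr8:84847055-84847113, - strand): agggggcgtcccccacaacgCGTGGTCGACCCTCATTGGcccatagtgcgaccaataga
Creld2 (chr15:88819500-88819558, + strand): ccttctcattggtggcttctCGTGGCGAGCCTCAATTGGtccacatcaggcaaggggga
Derl3 (chr10:75893222-75893280, + strand): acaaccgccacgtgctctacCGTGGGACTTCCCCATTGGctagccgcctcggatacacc
Dnajc3 (chr14:118937807-118937865, + strand): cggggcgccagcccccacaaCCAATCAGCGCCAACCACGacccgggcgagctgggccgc
Pdia6 (chr12:17266471-17266529, + strand): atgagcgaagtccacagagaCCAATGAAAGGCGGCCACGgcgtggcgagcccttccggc
Hsp90b1 held a second match further from its start. Differences were -2.17 ± 0.55 for Creld2, -1.47 ± 0.33 for Dnajc3, a co-chaperone of BiP, and -1.38 ± 0.37 for the disulfide isomerase Pdia6. No match in this window says only that these letters are not there.

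Most targets of NRF2 had higher signals in Epcam-derived tumours. Of 35 members 34 were measured, 32 of 34 had a higher mean and the median difference was 1.33. The groups did not overlap for 27 of them, 79.4% of the list against 30.4% of all features. Cbr3 alone passed, and 22 members were higher at an unadjusted p under 0.05, a level that 11.7% of all features reached in that direction. The median was 1.77 without Epcam-derived replicate 1 and 0.97 without replicate 2.

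Nqo1, a quinone reductase that is the usual readout of NRF2, read 0.08 and -0.93 in Albumin-derived and 2.03 and 2.94 in Epcam-derived tumours (2.91 ± 0.47, limma adjusted p = 0.0796). The glutathione branch included Gclc, the rate-limiting enzyme of glutathione synthesis, at 4.61 and 3.89 against 5.96 and 7.41 (2.43 ± 0.54, adjusted p = 0.116), and Slc7a11, which imports cystine, at -4.26 and -1.18 against 1.57 and 3.13. Glutathione transferase Gsta2 read 4.80 and 0.91 in Albumin-derived and 7.02 and 8.39 in Epcam-derived tumours, with the 2 Albumin-derived arrays far apart. Srxn1, which repairs oxidised peroxiredoxins, differed by 2.04 ± 0.44 (adjusted p = 0.111). The export pump Abcc3, which moves conjugated bile salts and bilirubin into blood, read 2.58 and 3.07 against 5.47 and 6.38 (3.10 ± 0.39, adjusted p = 0.0586), and its second probe passed in the limma fit of every probe on its own (3.41 ± 0.36, adjusted p = 0.0464). NADPH-producing enzymes of the pentose phosphate path differed by 1.93 ± 0.53 for G6pdx and 1.53 ± 0.60 for Pgd. Hmox1 and Osgin1 had a lower mean in Epcam-derived tumours, at -0.30 ± 0.54 and -0.96 ± 0.60.

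The core TGACNNNGC of the antioxidant response element was searched in the same way on both strands. It lay in 10 of the 30 members with a promoter in the table (33.3%), against 14.0% of 27025 genes. The list holds known targets of NRF2 and was chosen with earlier results known, so the comparison of these shares tests nothing. Its first letters are also the start of the AP-1 site, and such short letters occur often. The match is shown for 3 of the members whose groups did not overlap, with capitals on the core or its reverse complement. Others of that kind, such as Srxn1 and Me1, are not shown.
Abcc2 (chr19:43782190-43782238, + strand): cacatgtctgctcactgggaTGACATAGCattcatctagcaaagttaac
G6pdx (chrX:74428909-74428957, - strand): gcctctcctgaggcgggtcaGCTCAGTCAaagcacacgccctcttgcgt
Gsta3 (chr1:21240444-21240492, + strand): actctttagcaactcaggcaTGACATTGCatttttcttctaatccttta
The difference was 1.18 ± 0.32 for Abcc2, an export pump of the bile canaliculus, and 1.15 ± 0.27 for the glutathione transferase Gsta3. Promoters of Nqo1 and Cbr3 had no match in this window.

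**Figure D4:**
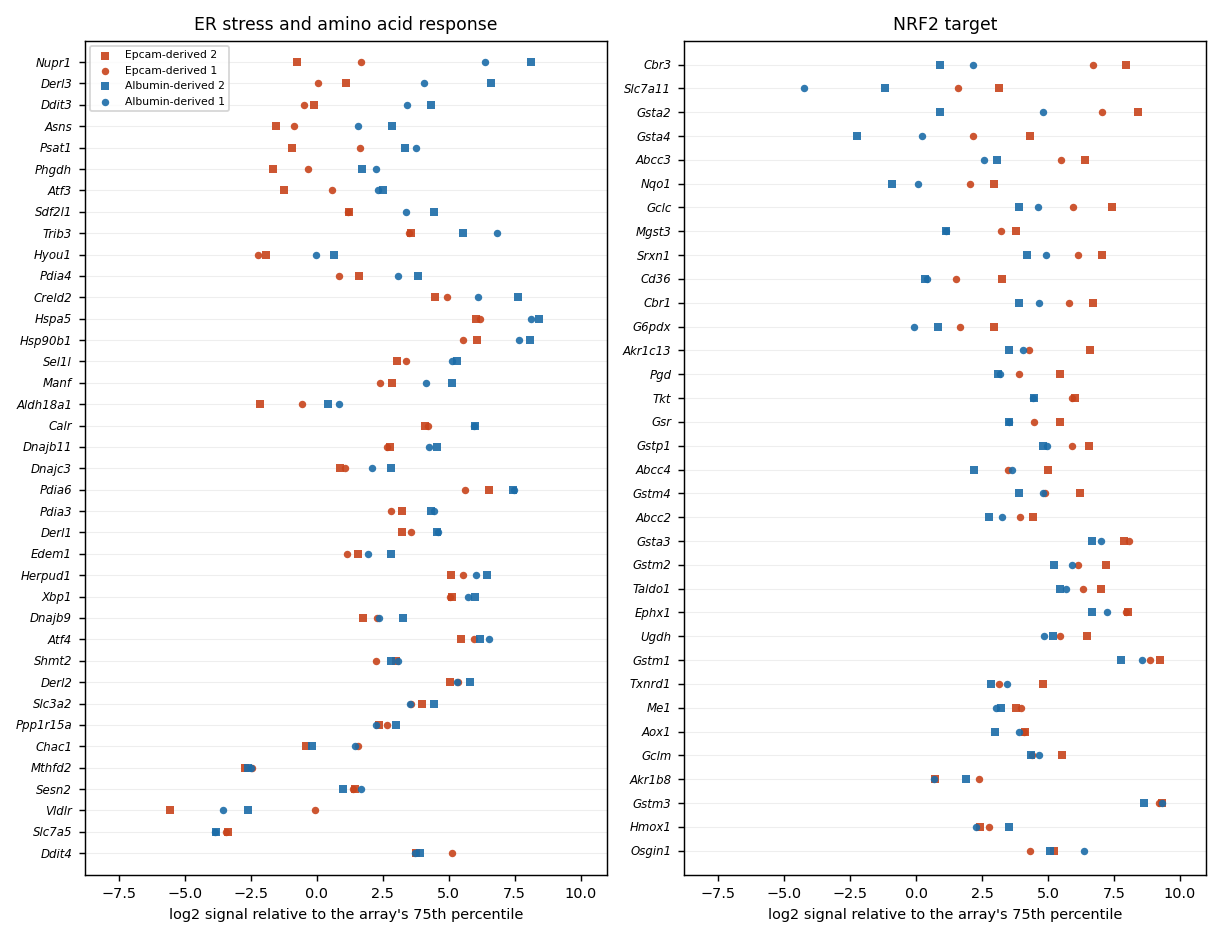
Log2 signal relative to the array's 75th percentile (x axis) for the members (y axis) of the list of endoplasmic reticulum stress and amino acid response genes, left, and of NRF2 targets, right, 1 symbol per array without CLC. Blue symbols (Albumin-derived) lie right of red symbols (Epcam-derived) for most rows on the left, such as Ddit3 and Hspa5, and left of them for most rows on the right, such as Nqo1 and Cbr3.

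Drug-metabolising genes moved in both directions, with 25 of 44 targets of CAR and PXR having a higher mean and a median of 0.50. Ugt1a10 rose and Cyp3a44 fell, and the other 42 measured members did not pass. The P450 reductase Por, which feeds electrons to all microsomal P450s, differed by 1.24 ± 0.44 (limma, adjusted p = 0.216), and Ugt1a6a by 2.62 ± 0.37 (adjusted p = 0.0685). In the Cyp3a family Cyp3a11 and Cyp3a16 had lower means in Epcam-derived tumours (-3.71 ± 1.15 and -3.89 ± 1.18), whereas Cyp3a25 had a higher one (2.39 ± 0.59). Sult2a8, a sulfotransferase, read 4.06 and 3.02 in Albumin-derived and 0.37 and 0.14 in Epcam-derived tumours (-3.28 ± 0.45, adjusted p = 0.0668). Of AhR targets, Cyp1a2 read -1.70 and -3.17 against 1.15 and 1.86 (3.95 ± 0.61, adjusted p = 0.0767), and Cyp1a1, not well above background in Albumin-derived tumours, was at least 8.54-fold higher (adjusted p = 0.0833).

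Heme and iron genes, the path that DDC acts on, were spread around 0, with a median of -0.003 for 20 heme genes and 0.03 for 20 iron genes. Alas1, the rate-limiting enzyme of heme synthesis, read 4.96 and 5.02 in Albumin-derived and 6.28 and 6.68 in Epcam-derived tumours (1.49 ± 0.37, limma adjusted p = 0.135). Fech, the ferrochelatase that porphyrin-forming agents block, read 4.23 and 3.90 against 3.95 and 4.21. Blvrb, a biliverdin reductase, read 3.24 and 2.85 against 5.63 and 6.44 (2.99 ± 0.38, adjusted p = 0.0586), the farthest member from 0.

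Most hepatocyte genes had somewhat lower signals in Epcam-derived tumours. Of 34 measured, 29 had a lower mean, the median was -0.80, and the groups did not overlap for 25 of these, 73.5% against 24.8% of all features. No member passed, and 17 were lower at an unadjusted p under 0.05, against 8.28% of all features. The summed signal of the list was 14799 and 13774 times the 75th percentile in Albumin-derived and 8354 and 6969 in Epcam-derived tumours. In bulk tumour, fewer cells of a type and less RNA per cell cannot be told apart. Among the members with the smallest p, Fga, a fibrinogen chain, read 5.03 and 5.62 against 3.70 and 2.42 (-2.26 ± 0.48, limma adjusted p = 0.112), and Serpina1d, an antitrypsin, 9.39 and 8.85 against 7.45 and 7.13 (-1.83 ± 0.34, adjusted p = 0.0950), though its near-identical copies may share the probe. C8b, a complement component in the list of male-biased genes, read 4.18 and 4.29 against 1.60 and 1.37 (-2.75 ± 0.31, adjusted p = 0.0514), and its second probe passed in the fit of every probe (-3.63 ± 0.27, adjusted p = 0.0228). The transcription factor Hnf4a, which maintains hepatocyte identity, read 6.26 and 5.98 against 5.87 and 6.17. Hpd, of tyrosine breakdown, ran the other way at 1.22 and 1.66 against 3.49 and 4.61 (2.61 ± 0.43, adjusted p = 0.0812). Leaving out Epcam-derived replicate 1 moved the list's median to -0.90.

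Acute phase proteins had a median of -0.59, with Apcs past the threshold and 19 of 29 members lower in mean. The median depended on single tumours: it was -1.70 without Epcam-derived replicate 1, -0.01 without replicate 2, -1.34 without Albumin-derived replicate 1 and 0.01 without Albumin-derived replicate 2. Orm1, an acid glycoprotein, read 0.33 and 5.50 in Albumin-derived and 6.23 and 5.24 in Epcam-derived tumours, so that 1 Albumin-derived tumour alone was low.

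Cholesterol synthesis genes, which SREBP2 controls, had a lower mean in Epcam-derived tumours for 21 of 24 measured, with a median of -0.76. The groups did not overlap for 14 of these, 58.3% against 24.8% of all features, and no member passed. Ebp, which isomerises sterols late in the path, read 7.60 and 7.47 in Albumin-derived and 4.65 and 5.17 in Epcam-derived tumours (-2.63 ± 0.34, limma adjusted p = 0.0595). Fdps, which makes farnesyl diphosphate, read 6.90 and 7.85 against 4.91 and 4.74 (-2.55 ± 0.50, adjusted p = 0.0996). The median was -0.87 without Epcam-derived replicate 1. Fatty acid synthesis genes had a median of -0.36, with 15 of 23 lower in mean, against 46.5% of all features. That median did not keep its sign. It was 0.07 without Epcam-derived replicate 2 and 1.17 with slide as a fixed term.

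Bile acid genes differed in both directions. Cyp8b1, which sets the share of cholic acid, read 1.104 and 0.20 in Albumin-derived and -4.72 and -2.62 in Epcam-derived tumours (-4.32 ± 0.92, limma adjusted p = 0.112), and the canalicular export pump Abcb11 6.06 and 5.10 against 4.07 and 4.22. Abcc3 and Akr1d1, a steroid reductase of bile acid synthesis, had higher means (3.10 ± 0.39 and 2.56 ± 0.51). The median of the 27 measured genes was 0.17.

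Bile duct genes went both ways as a list, with 18 of 34 members higher in mean and a median of 0.10. The groups did not overlap for 8 higher members (23.5%, against 30.4% of all features). For 12 lower members they did not overlap either (35.3%, against 24.8%). The summed signal was 157 and 432 times the 75th percentile in Albumin-derived and 379 and 129.6 in Epcam-derived tumours, which overlap. Anxa8 and Krt23 were the 2 of 34 members that passed, both lower in Epcam-derived tumours, as were 0.186% of all features. Tff2, a trefoil peptide of mucus, was at least 22.02-fold higher (limma, adjusted p = 0.0996), and Anxa13, an epithelial annexin, read -1.16 and -1.36 in Albumin-derived and 3.69 and 2.13 in Epcam-derived tumours (4.17 ± 0.81, adjusted p = 0.0997). Mmp7, a matrix protease of ductular cells, read -5.64 and -4.00 against -2.03 and -2.66 (2.47 ± 0.62, adjusted p = 0.137), while St14, the protease matriptase, read -1.90 and -0.75 against -3.85 and -3.48 (-2.35 ± 0.50, adjusted p = 0.113).

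Genes of fetal liver and imprinted genes leaned lower in Epcam-derived tumours, with a median of -0.39 and 15 of 23 members lower in mean, none past the threshold. Bex2 read 1.98 and 3.17 in Albumin-derived and -2.18 and -6.85 in Epcam-derived tumours (-7.09 ± 1.47, limma adjusted p = 0.107), and Plagl1, an imprinted zinc finger factor, 2.05 and 0.51 against -3.65 and -1.96 (-4.08 ± 0.82, adjusted p = 0.102), while a second Plagl1 probe differed by only 0.095.

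Macrophage genes had a higher mean in Epcam-derived tumours for 21 of 26 members, against 53.5% of all features. Their median was 0.88, and no member passed the threshold. The groups did not overlap for 10 of the higher members, 38.5% of the list against 30.4% of all features. Of the 5 members with a lower mean, Gpnmb was farthest from 0, at -3.20 ± 1.85. The summed signal of the list was 115 and 279.8 times the 75th percentile in Albumin-derived and 222 and 229.6 in Epcam-derived tumours. Cx3cr1, a fractalkine receptor of infiltrating and capsular macrophages, read -0.28 and -0.17 against 2.23 and 2.78 (2.73 ± 0.69, limma adjusted p = 0.139), and Adgre1, the marker F4/80, 0.71 and 0.92 against 1.90 and 2.41 (1.35 ± 0.30, adjusted p = 0.115). Interferon response genes had a median of 1.11, with 25 of 28 higher in mean and 0 past the threshold (limma, with 5 of 28 higher at an unadjusted p under 0.05, against 11.7% of all features). That median was 1.63 without Epcam-derived replicate 1 and 0.47 without replicate 2. It turned to -0.73 with slide as a fixed term. That term rests on the difference between the tumours with CLC, so slide and tumour cannot be told apart there.

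The sums of most other cell types overlapped between groups. T and NK cell genes summed to 48.8 and 33.2 times the 75th percentile in Albumin-derived and 52.5 and 34.7 in Epcam-derived tumours, neutrophil genes to 110.3 and 105 and 113 and 102, and fibroblast and stellate cell genes to 212 and 291 and 367 and 137. B and plasma cell genes, 13 of 18 measured, summed to 61.4 and 69.8 in Albumin-derived against 40.4 and 41.4 in Epcam-derived tumours, without overlap. That list holds Xbp1, at 5.73 and 6.01 against 5.04 and 5.12, while 9 of 13 members had a higher mean in Epcam-derived tumours, with a median of 0.57 (0.18 with dim values at their bounds). Erythroid genes summed to 384 and 258 and 1293 and 137, with the highest sum on Epcam-derived replicate 1. Cell cycle genes had a median of -0.17, which was 0.51 without Epcam-derived replicate 1 and -0.87 without replicate 2. The part of these cell types in the differences above was not tested.

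**Figure D5:**
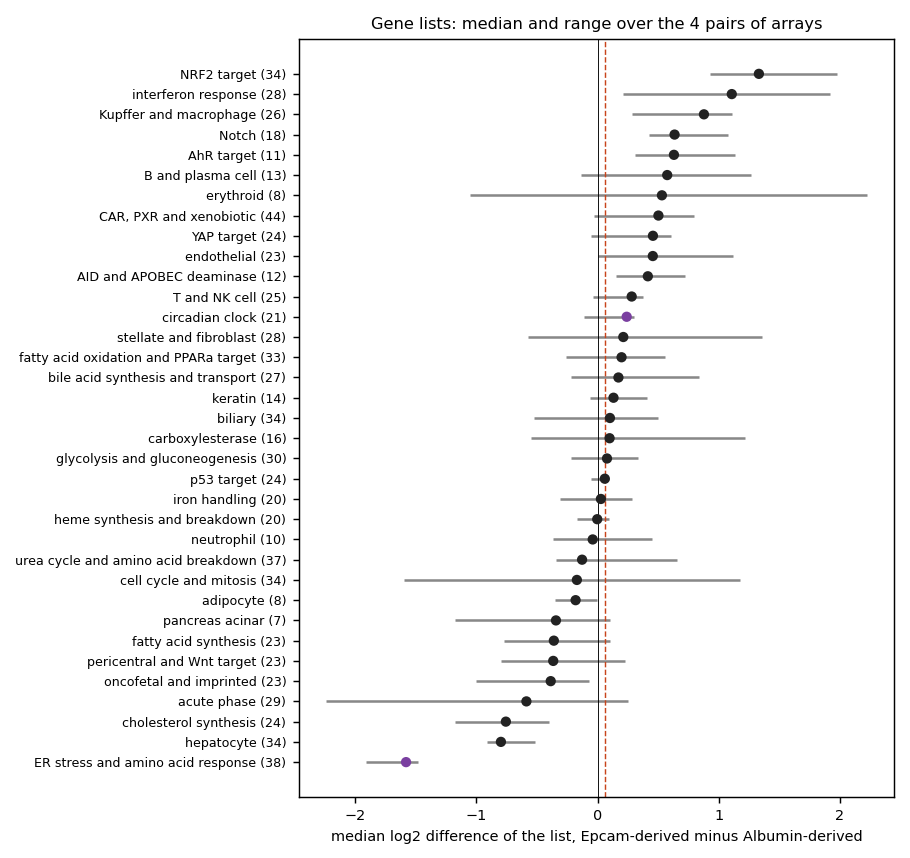
Median log2 difference of each gene list, Epcam-derived minus Albumin-derived (x axis), with the number of measured members in brackets on the y axis; the line spans the medians of the 4 pairs of 1 Epcam-derived with 1 Albumin-derived array, lists of sex genes and lists with fewer than 5 measured members are not drawn, and the dashed line is the median of all features, 0.06. Of the lists drawn, NRF2 targets are highest at 1.33 and endoplasmic reticulum stress genes lowest at -1.58, the latter in purple as a list compiled after values were seen, as is the circadian clock list.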

How the data were processed

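Each of 6 mouse tumours gave RNA for 1 array (Agilent, 1 colour). The authors deposited, per the file headers, scanner output of Agilent Feature Extraction 11.5.1.1: the intensity of each spot, background-subtracted and detrended, with marks of 0 or 1 for spots well above background. Intensities were divided by each array's 75th percentile over non-control spots and put on a log2 scale, computed here from the deposited intensities. Spots of a probe were averaged. A probe was kept where both tumours of any group had it well above background, and the brightest probe stood for a gene. RefSeq GRCm38.p6 supplied gene names and promoter sequences. limma 3.58.1 in R 4.3.3 (lmFit, eBayes) was fitted to all 6 arrays with 1 mean per group, tested on simulated data, and p-values were Benjamini-Hochberg adjusted over all features. Precision is limited by 2 arrays per group.

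The text names the called genes with the largest differences (15 in each direction), a choice of the 10 largest differences in each direction among non-overlapping genes, and up to 4 genes per list and direction with the smallest p. Chosen after values were seen were Amy1, Ctsl, Angptl6, Niban1 and the other genes that passed outside these, Cyp2b9, Mup20, Cyp3a11, Cyp3a25, Fech, G6pdx, Gclc, Gsta2, Gsta3, Hnf4a, Pgd, Por, and the members of the stress and clock lists except Nupr1 and Xbp1. The comparison and its lists were chosen with earlier results of these data known, and the stress and clock lists after their values were seen. Mean spot signals were not used here, so normexp correction took median signals. Alternatives covered background, scaling, filter, probe choice, model, slide and each array left out.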

Additional observations from a re-analysis of the deposited data

How the results depend on the processing

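The counts of features past the threshold (16 higher and 51 lower) moved with the setting. All 67 kept their direction in every setting that tested them, except 1 feature under normexp correction. These features were chosen by p in the same data, and several settings cannot turn a sign, so the kept direction is no support. Counts of higher and lower features were 9 and 25 with only the 4 arrays without CLC, 33 and 102 with normexp background correction, 25 and 77 with quantile normalization, 23 and 83 with the median in place of the 75th percentile, 22 and 55 with the percentile of detected probes, 29 and 81 with probes of a gene averaged, and 25 and 79 with every probe on its own. They were 1 and 0 with no filter on dim probes, 8 and 24 with probes well above background on all 6 arrays, 5 and 35 with only features that have a symbol, 35 and 83 with slide as a random block, and 0 and 0 with slide as a fixed term (limma, 1995 at an unadjusted p under 0.05), a term that rests on the tumours with CLC. Leaving out 1 array gave 0 to 3 higher and 0 to 13 lower. The deposited value table gave 16 and 51, its columns being the scanner signals times 1 factor per array. The median over all features was -0.16 with normexp and -0.18 with no filter, against 0.06. Replicate numbers did not pair the arrays (correlation of deviations -0.16 between the 2 groups, 0.06 between Albumin-derived tumours and those with CLC, and 0.23 between Epcam-derived tumours without and with CLC, whose replicates 1 share the sex-linked pattern), and a replicate block gave 3 and 8. Crossed numbers as a block, chosen after seeing the data, gave 28 and 68. Named genes with no call that changed sign were Cyp2b9 (3.57 with slide as a fixed term), Fech (-0.068 with the median as scale, -0.15 to 0.18 with 1 array left out), Hnf4a (0.33 with quantile normalization, -0.25 to 0.052 with 1 left out), Hmox1 (0.63 with slide fixed, -0.94 to 0.33 with 1 left out) and Eif2s3y (-8.62 to 0.023 with 1 left out).

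Over 23 settings the list medians ranged over -1.81 to -1.42 for stress genes, 0.97 to 1.77 for NRF2 targets, -0.90 to -0.35 for hepatocyte genes and -1.13 to -0.52 for cholesterol synthesis. With dim values at their bounds, a setting added after seeing the data, the AhR median was 0.07 against 0.63. Depth here is signal over background: 2307 features were too dim in Albumin-derived and 171 in Epcam-derived tumours, and their differences are bounds only. With 2 tumours per group, slide, diet and origin changing together and 1 Epcam-derived tumour apart in sex-linked genes, none of these can be told apart.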

Other observations

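Circadian clock genes, a list compiled after values were seen, split by direction, with 11 of 21 higher in mean and a median of 0.24. Noct, a phosphatase with a nightly peak, read 5.22 and 6.23 in Albumin-derived against 0.44 and 1.25 in Epcam-derived tumours (-4.88 ± 0.53, limma adjusted p = 0.0514), and Arntl, the clock activator BMAL1, -0.36 and -0.52 against -4.05 and -2.95 (-3.06 ± 0.46, adjusted p = 0.0752). Usp2, a ubiquitin protease with a daily rhythm, read -1.17 and -1.42 against -0.02 and 0.62. The time of day at which tissue was taken is not given in the sources used here.

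Wnt4, a secreted signalling protein, read -3.71 and -2.60 in Albumin-derived against 0.13 and 3.47 in Epcam-derived tumours (4.95 ± 1.09, limma adjusted p = 0.115), and Wfdc2, a secreted protein of ductal and other epithelia, -1.67 and -2.11 against 5.04 and 0.99 (adjusted p = 0.139). Adgrv1, an adhesion receptor, ran the other way at -0.09 and 2.94 against -4.74 and -4.03 (-5.81 ± 0.97, adjusted p = 0.0816), with a second probe at -2.82 ± 1.01. These genes too were taken from those whose groups did not overlap, and none passed the threshold.

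Tumours with CLC, from Epcam-AID mice treated alike, read 5.58 and 6.14 for Hspa5, -0.72 and 0.24 for Ddit3 and 2.11 and 2.20 for Nqo1, all outside the range of the Albumin-derived arrays. Asns there read 1.40 and 2.91, which spans the Albumin-derived range, and Angptl6 read 1.11 and -0.04.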
